A study of Mus musculus with 25 samples.

Results

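The tricarboxylic acid (TCA) cycle enzymes described here are 9 nuclear genes, Cs, Idh3a, Idh3b, Idh3g, Ogdh, Sucla2, Suclg1, Fh1 and Mdh2, which form a list of mitochondrial cycle enzymes whose rule uses no measured value, although the list was drawn up with earlier results of these data known. All 9 were found by symbol among the 23116 genes of the expression table. Their mRNA levels were compared between hematopoietic stem cells that carried or had lost Znf143, a zinc finger transcription factor that binds promoters and is listed in the table under the mouse symbol Zfp143. The series holds 25 samples, of which 6 are RNA-seq libraries of sorted bone marrow HSLAM cells (LSK+ CD150+ CD48-), a gate that enriches for long-term hematopoietic stem cells. The other 19 samples were not used here.

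The first group was Znf143 f/f x Rosa26ERT2-Cre- (called Znf143 f/f here, 3 libraries, WT in the labels) and the second was Znf143 f/f x Rosa26ERT2-Cre+ (called Znf143 -/-, 3 libraries, KO in the labels). Both groups were adult C57BL/6 mice with loxP sites around the first Znf143 exon, male littermates of 8 to 12 weeks per the study's methods, and both were given tamoxifen over 10 days at the middle of the study's doses, so the drug was shared and the Cre transgene was not. The Rosa26 promoter drives Cre in most tissues, so the deletion was not restricted to stem cells. The labels number the libraries 1 to 3 in each group but do not say which animals gave which library. Another label field names Ctcf as the deleted gene of the second group, whereas the measured gene that was nearly lost was Zfp143. It stood at 3.07, 4.43 and 3.66 rescaled FPKM in Znf143 f/f libraries 1, 2 and 3, and at 0.155, 0.298 and 0.270 in Znf143 -/- libraries 1, 2 and 3. Zfp143 fell by 3.50 on the log2 scale (SE 0.239, limma adjusted p = 0.0010).

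FPKM, which divides a gene's fragments by its listed length and by the library's total, is a level per length. Rescaled FPKM is that deposited value after one size factor per library was divided out. Differences between genotypes are Znf143 -/- minus Znf143 f/f on the log2(rescaled FPKM + 0.1) scale, and a gene was called at an adjusted p under 0.05 (limma, Benjamini-Hochberg over 19278 genes). In every list of 6 values the libraries run 1, 2, 3 within each genotype. Each library is bulk RNA of sorted cells, so fewer cells of a type and less RNA per cell cannot be told apart.

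In the mitochondrial matrix the TCA cycle joins acetyl-CoA to oxaloacetate and oxidises the product stepwise, passing electrons to NAD and to the respiratory chain and returning oxaloacetate. Its intermediates also leave for the synthesis of heme, lipids, amino acids and nucleotides. Hematopoietic stem cells are known for low rates of mitochondrial respiration at rest, which increase when the cells divide and differentiate.

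Before any member is described, the libraries need a remark, because both genotypes held a pair of libraries that were almost alike. Per gene, the median chi-square of the fragment counts was 1.37 between Znf143 f/f libraries 1 and 3 and 1.54 between Znf143 -/- libraries 2 and 3. Sampling alone gives a median of 0.455. In the other 13 pairs of libraries, within and between genotypes, it ran from 13.0 to 25.6. Among genes under 200 fragments the mean chi-square was 1.74 in both near-duplicate pairs, against 1 for sampling alone and 7.74 to 14.8 elsewhere. The near-duplicate libraries therefore differed by more than sampling noise and were kept as separate libraries in the fit of 3 against 3. The study describes the libraries of each genotype as biological replicates and the mice as littermates. From the chi-square values alone, separate but similar animals cannot be told apart from repeat libraries of 1 animal, which would conflict with that description. Each member's difference is also given with the pairs averaged to 1 sample each (2 against 2), a choice made after the data were seen. The fit of 3 against 3 and the exact permutation tests of ratios below both count the near-duplicates as separate libraries. Their p-values measure only the spread between these libraries, which may be technical in part.

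**Figure D1:**
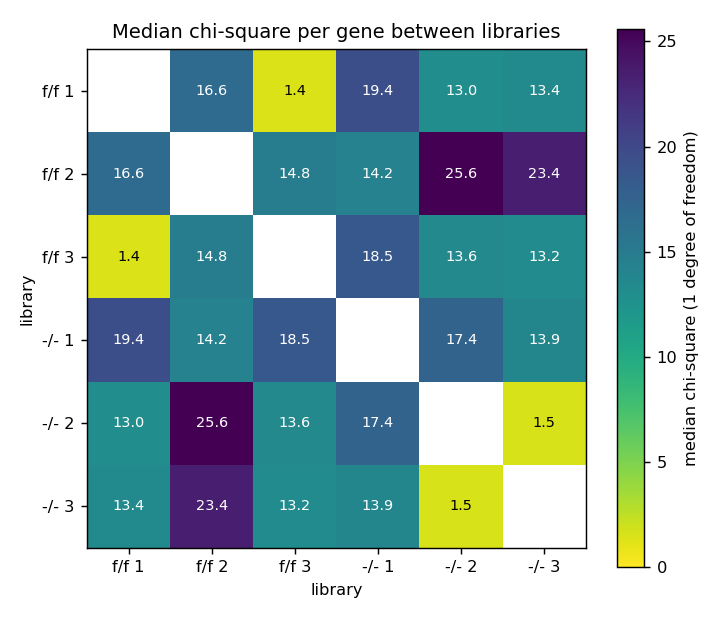
Median chi-square per gene between each pair of the 6 libraries, on 1 degree of freedom, with both axes listing the libraries and f/f and -/- standing for the genotypes. The pair f/f 1 and 3 (1.37) and the pair -/- 2 and 3 (1.54) stand out as near-duplicates, and all other pairs lie between 13.0 and 25.6.

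The markers of the gate, Kit, Ly6a (Sca-1) and Slamf1 (CD150) among them, were detected in every library, and some genes of neighbouring cell types moved with genotype. Over all genes tested, 5.99% were called. Of 7 stem cell markers (Kit, Ly6a, Slamf1, Procr, Mecom, Hlf, Meis1), 2 were called, Ly6a higher and Mecom lower, and 5 of the 7 log2 differences were negative. Their summed level was 363 to 426 rescaled FPKM in Znf143 f/f and 663 to 718 in Znf143 -/-, most of it Ly6a, without which the 6 others summed to 124 to 138 and to 113 to 116. Among 3 markers that the gate or an earlier stage excludes (Cd48, Flt3, Il7r), 2 were tested and both were called higher. The 3 summed to 14.7 to 16.0 and to 35.5 to 36.0. Cd48 went from 9.56 to 11.1 in Znf143 f/f to 19.6 to 20.4 in Znf143 -/-, and Flt3 from 4.97 to 5.39 to 15.5 to 16.0. Of 9 lineage markers 6 were tested and 1 was called, the neutrophil protease Elane. All 9 summed to 442 to 495 and to 533 to 846. Nearly all of that sum was the platelet chemokine Pf4, which was not called (adjusted p = 0.261) and stood at 819.5 in Znf143 -/- library 1 and at 498 and 520.2 in libraries 2 and 3. Without Pf4 the 8 others summed to 18.4 to 52.4 and to 26.96 to 34.8. With the near-duplicates averaged, Flt3 alone of these markers stayed called (limma adjusted p = 0.0413), and Cd48 (0.1395), Ly6a (0.144), Elane (0.179) and Mecom (0.409) did not. Il7r was at 0 in every Znf143 f/f library, and Cd3e and Cd79a reached at most 0.084 rescaled FPKM in any library. The part of these marker shifts in the values below was not tested.

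None of the 9 TCA cycle enzyme mRNAs passed the adjusted threshold between the genotypes, and their differences were small. The call rate over all genes tested was 5.99%. The log2 differences ran from -0.32 for Fh1 to 0.38 for Idh3a, 6 of them above 0 and 3 below. At an unadjusted p under 0.05 there were 3 members, Idh3a and Suclg1 higher and Fh1 lower, where 24.2% of all genes passed that level. The count was also 0 called and 3 unadjusted with voom on recovered fragments, and 0 called and 0 unadjusted with the near-duplicates averaged, where 0.228% of all genes were called. Of the 19278 genes tested, 4807 passed the unadjusted level with voom and 1904 with the near-duplicates averaged. The median difference of the members was 0.15, beside 0.01 over all genes tested. Summed over the 9 genes, the level was 568, 576 and 563 rescaled FPKM in Znf143 f/f and 588, 659 and 638 in Znf143 -/-, which did not overlap. Mdh2 and Idh3g made up the larger part, with means of 167 and 143 of 569 in Znf143 f/f. In Znf143 -/- their means were 188 and 159 of 628. The sums overlapped in the deposited values, before rescaling, and were not tested.

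**Figure D2:**
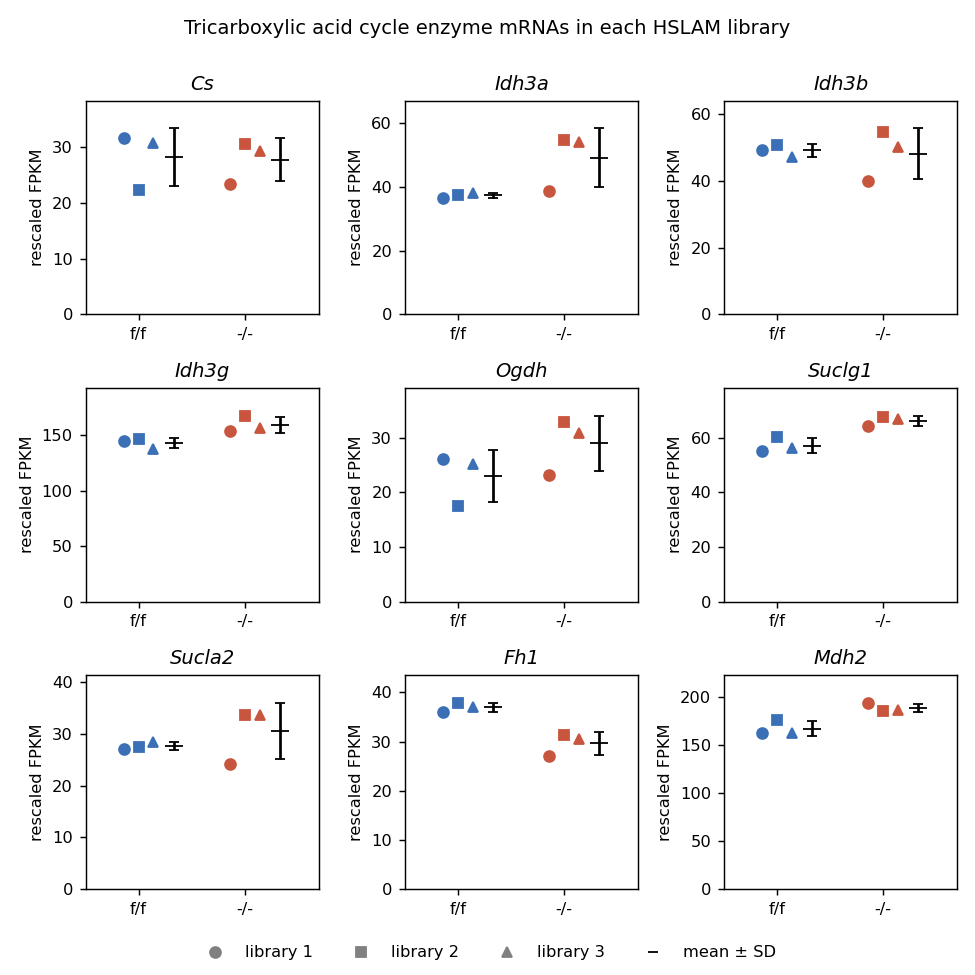
Rescaled FPKM of each TCA cycle enzyme mRNA in every library, by genotype (blue f/f, red -/-), with marker shape for the library number and bars for the mean ± SD of 3 libraries. The genotypes do not overlap for Idh3a, Idh3g, Suclg1, Mdh2 and Fh1, and -/- library 1 is the lowest of its genotype for every gene but Mdh2.

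In 4 members every Znf143 -/- library lay above every Znf143 f/f library (Idh3a, Idh3g, Suclg1 and Mdh2) and in 1, Fh1, every one lay below. Over all genes the shares were 15.4% and 15.3%. In the deposited values, before rescaling, 2 members (Suclg1 and Mdh2) were without overlap on the high side and 0 on the low side, beside 16.6% and 8.47% of all genes. The third Znf143 -/- library carried the FPKM divisor of the second although it held 1.20 times as many fragments, and rescaling takes that difference out.

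The promoters of 4 genes on which the comparison turns are printed below, Fh1 and Suclg1 as the members with the smallest p-values, and Mdh2 with its cytosolic counterpart Mdh1 as the pair that parted between the genotypes. Each runs from 250 bases before to 50 bases after a RefSeq start (GRCm38.p6), 5′ to 3′ on the strand of the gene. Their positions are chr1:175625586-175625885 (minus strand) for Fh1, chr6:73248255-73248554 (plus) for Suclg1, chr5:135778399-135778698 (plus) for Mdh2 and chr11:21571885-21572184 (minus) for Mdh1. Capitals mark a match to ACTACAA or its complement on the other strand, letters found within the longer motif known for Znf143.
Fh1: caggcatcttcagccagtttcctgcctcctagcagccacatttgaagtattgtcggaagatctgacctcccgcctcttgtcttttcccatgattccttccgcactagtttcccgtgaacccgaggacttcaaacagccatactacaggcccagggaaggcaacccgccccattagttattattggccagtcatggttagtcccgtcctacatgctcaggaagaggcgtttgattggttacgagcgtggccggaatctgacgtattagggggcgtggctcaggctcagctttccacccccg
Suclg1: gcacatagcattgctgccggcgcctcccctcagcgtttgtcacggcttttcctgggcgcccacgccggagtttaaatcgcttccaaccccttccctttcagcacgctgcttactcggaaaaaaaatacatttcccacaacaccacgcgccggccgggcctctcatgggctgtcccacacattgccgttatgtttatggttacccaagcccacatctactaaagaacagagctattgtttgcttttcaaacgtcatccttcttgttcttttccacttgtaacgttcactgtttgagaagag
Mdh2: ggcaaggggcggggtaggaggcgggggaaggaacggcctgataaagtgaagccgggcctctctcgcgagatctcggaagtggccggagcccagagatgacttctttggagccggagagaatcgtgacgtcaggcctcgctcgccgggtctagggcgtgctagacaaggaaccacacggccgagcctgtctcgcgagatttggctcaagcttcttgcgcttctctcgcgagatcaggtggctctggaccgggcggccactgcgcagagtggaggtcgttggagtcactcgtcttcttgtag
Mdh1: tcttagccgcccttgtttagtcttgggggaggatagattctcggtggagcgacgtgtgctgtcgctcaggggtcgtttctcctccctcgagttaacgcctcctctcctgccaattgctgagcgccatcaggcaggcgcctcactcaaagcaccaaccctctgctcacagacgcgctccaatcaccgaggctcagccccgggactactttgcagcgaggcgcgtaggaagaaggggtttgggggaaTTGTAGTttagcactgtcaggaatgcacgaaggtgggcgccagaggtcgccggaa

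Both strands were searched for TTCCCAG and ACTACAA, which occur within the known Znf143 motif, for CCGGAAG, the core bound by ETS family factors, and for GCGCATGC, a letter string bound by NRF1, a regulator of nuclear genes for mitochondrial proteins. They occur in 11.1%, 3.24%, 8.86% and 2.71% of 32851 mouse promoters of this length. RefSeq promoters were matched for 8 of the 9 members, with several starts for Ogdh. ACTACAA was found in the Mdh1 promoter, as TTGTAGT on the printed strand, and in none of the 8 members searched. Mdh1 was the only gene outside the members whose promoter was looked up, picked after its drop was seen. Whether the match bears on that drop was not tested. Idh3a was the member with no promoter matched. CCGGAAG was found in Idh3b and Idh3g. Ogdh held GCGCATGC at its 2 last starts and TTCCCAG at 1 of these. No match in a window says only that these letters are not in it.

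Cs, at chr10:128337734-128362479 (plus strand, GRCm38), encodes citrate synthase, the enzyme that joins acetyl-CoA to oxaloacetate. Its levels were 31.6, 22.2 and 30.7 rescaled FPKM in Znf143 f/f and 23.3, 30.5 and 29.3 in Znf143 -/-. Library 2 of Znf143 f/f and library 1 of Znf143 -/- were low and the remaining 4 were alike, so the genotypes overlapped widely. The log2 difference was -0.01 (SE 0.170, 95% interval -0.42 to 0.39, limma adjusted p = 0.97). Its sign was positive in 7 of 17 alternatives, so no direction can be given, and with the pairs averaged it was 0.01 (adjusted p = 0.996). A stretch of 268 bases of the Cs transcript, 9.1% of its length, has a copy elsewhere in the genome at 95.2% identity, which could take a part of its fragments.

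Idh3a, Idh3b and Idh3g encode the catalytic alpha and the regulatory beta and gamma subunits of the NAD-dependent isocitrate dehydrogenase, which turns isocitrate into oxoglutarate. Idh3a (chr9:54586334-54604661, plus) stood at 36.5, 37.5 and 38.2 rescaled FPKM in Znf143 f/f and at 38.7, 54.9 and 54.1 in Znf143 -/-. The Znf143 f/f libraries were tight, while library 1 of Znf143 -/- lay just above them and its near-duplicate pair well above. The difference was 0.38 (SE 0.145, 95% interval 0.03 to 0.72, unadjusted p = 0.0367, limma adjusted p = 0.177). With the pair averaged it was 0.29 (adjusted p = 0.745). Between the near-duplicate pairs the difference was 0.55, and between the libraries that stand apart, Znf143 -/- 1 and Znf143 f/f 2, it was 0.04. Without Znf143 -/- library 1, Idh3a was called at 0.54 (adjusted p = 0.0116), so 1 library decided that call. That fit keeps only the near-duplicate pair of Znf143 -/-, and it called 11.0% of all genes.

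Idh3b (chr2:130279309-130284547, minus) gave 49.1, 50.8 and 47.2 rescaled FPKM in Znf143 f/f and 39.8, 54.5 and 50.1 in Znf143 -/-. Here library 1 of Znf143 -/- was the lowest of all 6, and the near-duplicate pair lay within or above the range of Znf143 f/f. The difference of -0.04 (95% interval -0.34 to 0.26, limma adjusted p = 0.885) turned positive in 3 of 17 alternatives. Averaging the pairs gave -0.12 (adjusted p = 0.903). Idh3b shares 5 exonic bases with Nop56 on the opposite strand, and the libraries did not mark strand.

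Idh3g (chrX:73778963-73786897, minus) was the most abundant of the 3 subunit mRNAs, at 145, 147 and 138 rescaled FPKM in Znf143 f/f and 154, 168 and 156 in Znf143 -/-. The genotypes did not overlap, by a margin smaller than the range within either one. The difference was 0.15 (SE 0.083, 95% interval -0.04 to 0.35, limma adjusted p = 0.312), and 0.13 (adjusted p = 0.874) with the pairs averaged.

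Ratios within a library do not depend on how that library was scaled. The ratio of Idh3a to Idh3b was 0.743, 0.738 and 0.809 in Znf143 f/f and 0.971, 1.01 and 1.08 in Znf143 -/-. All 3 Znf143 -/- libraries were higher, library 1 included, although both of its levels were the lowest of its genotype. The log2 difference of the ratio was 0.42 (exact permutation test, two-sided, p = 0.1, adjusted over 4 ratios p = 0.2), and 0.1 is the smallest p that 3 against 3 allows. It was 0.43 between the near-duplicate pairs and 0.40 between the libraries that stand apart. With the pairs averaged it was 0.41. Leaving out each library in turn gave 0.37 to 0.46.

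Idh3b to Idh3g was 0.340, 0.346 and 0.342 in Znf143 f/f and 0.258, 0.325 and 0.321 in Znf143 -/-, a log2 difference of -0.19 with no overlap (exact permutation test, p = 0.1, adjusted p = 0.2). It rested largely on library 1 of Znf143 -/-, without which it was -0.09, and with the pairs averaged it was -0.25. Idh3a to Idh3g overlapped, at 0.252, 0.256 and 0.277 and at 0.251, 0.327 and 0.347 (0.22, exact permutation test, p = 0.4, adjusted p = 0.533). That value was 0.36 without Znf143 -/- library 1, 0.13 without library 3 and 0.16 with the pairs averaged. It was 0.35 between the near-duplicate pairs and -0.03 between the libraries that stand apart.

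**Figure D3:**
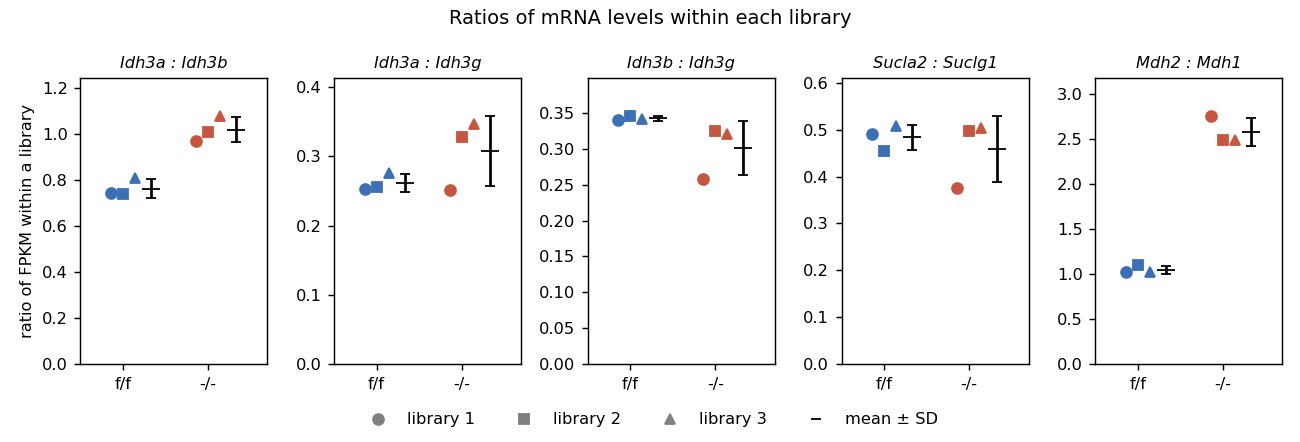
Ratios of rescaled FPKM of 2 genes within each library, by genotype, for 4 pairs of members and for Mdh2 to Mdh1, with bars for the mean ± SD of 3 libraries. Idh3a to Idh3b lies at 0.738 to 0.809 in f/f and at 0.971 to 1.08 in -/-, and Mdh2 to Mdh1 at 1.02 to 1.10 and at 2.49 to 2.76.

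Ogdh (chr11:6291633-6356642, plus) encodes the oxoglutarate-binding subunit of the oxoglutarate dehydrogenase complex, which forms succinyl-CoA. Levels were 26.1, 17.5 and 25.2 rescaled FPKM in Znf143 f/f and 23.2, 32.8 and 30.8 in Znf143 -/-. As with Cs, library 2 of Znf143 f/f and library 1 of Znf143 -/- were the lowest of their genotypes, and the genotypes overlapped. The difference of 0.34 had the widest interval of the members (SE 0.198, 95% interval -0.13 to 0.81, limma adjusted p = 0.348). Averaging the pairs gave 0.36 (adjusted p = 0.745). Without Znf143 f/f library 2 it was 0.16, still not called. The paralogs Ogdhl and Dhtkd1, like the Cs paralog Csl, were scarcely detected, at means of at most 0.188 rescaled FPKM in either genotype.

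Suclg1 and Sucla2 encode the shared alpha subunit and the ATP-forming beta subunit of succinyl-CoA synthetase, the step of the cycle that makes a nucleoside triphosphate directly. Suclg1 (chr6:73248382-73276911, plus) was measured at 55.2, 60.2 and 56.2 rescaled FPKM in Znf143 f/f and at 64.3, 67.8 and 66.9 in Znf143 -/-. Every Znf143 -/- library was higher, also in the deposited values. The difference was 0.21 (SE 0.076, 95% interval 0.03 to 0.40, unadjusted p = 0.0272, limma adjusted p = 0.151). It was 0.27 between the near-duplicate pairs, 0.10 between the libraries that stand apart and 0.18 (adjusted p = 0.792) with the pairs averaged.

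Sucla2 (chr14:73525319-73596142, plus) gave 27.1, 27.4 and 28.5 rescaled FPKM in Znf143 f/f and 24.2, 33.7 and 33.7 in Znf143 -/-. Library 1 of Znf143 -/- lay below all of Znf143 f/f and the near-duplicate pair above, so that the direction differed within the genotype. The difference was 0.13 (95% interval -0.21 to 0.46, limma adjusted p = 0.640). Without library 1 of Znf143 -/- it was called at 0.28 (adjusted p = 0.0444), in the fit that called 11.0% of all genes. Averaging the pairs gave 0.05 (adjusted p = 0.965). The ratio of Sucla2 to Suclg1 was 0.491, 0.455 and 0.508 in Znf143 f/f and 0.377, 0.497 and 0.503 in Znf143 -/- (log2 difference -0.09, exact permutation test, p = 0.8, adjusted p = 0.8). It was 0.05 without Znf143 -/- library 1 and -0.14 with the pairs averaged, so this ratio had no direction.

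Fh1 (chr1:175600374-175625635, minus) encodes fumarate hydratase, which adds water to fumarate to give malate. It was the one member below Znf143 f/f in all Znf143 -/- libraries, with 36.0, 37.8 and 37.1 rescaled FPKM against 26.98, 31.4 and 30.5. On average the Znf143 -/- level was 80.2% of that of Znf143 f/f. The difference was -0.32 (SE 0.086, 95% interval -0.53 to -0.11, unadjusted p = 0.0082), which did not pass after adjustment (limma adjusted p = 0.0807). It was negative in all 17 alternatives, from -0.36 to -0.21, and called in none of them. With the pairs averaged it was -0.36 (adjusted p = 0.554). In the deposited values the genotypes overlapped for Fh1, since library 3 of Znf143 -/- was listed at 36.8 there.

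Mdh2 (chr5:135778480-135790398, plus) encodes the mitochondrial malate dehydrogenase, which closes the cycle by turning malate into oxaloacetate. It was the most abundant member, at 162, 176 and 162 rescaled FPKM in Znf143 f/f and 193, 185 and 186 in Znf143 -/-, and it was the only one highest in library 1 of Znf143 -/-. The groups did not overlap, with or without rescaling. The difference was 0.18 (SE 0.083, 95% interval -0.02 to 0.38, unadjusted p = 0.0735, limma adjusted p = 0.254). With the pairs averaged it was 0.17 (adjusted p = 0.843).

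**Figure D4:**
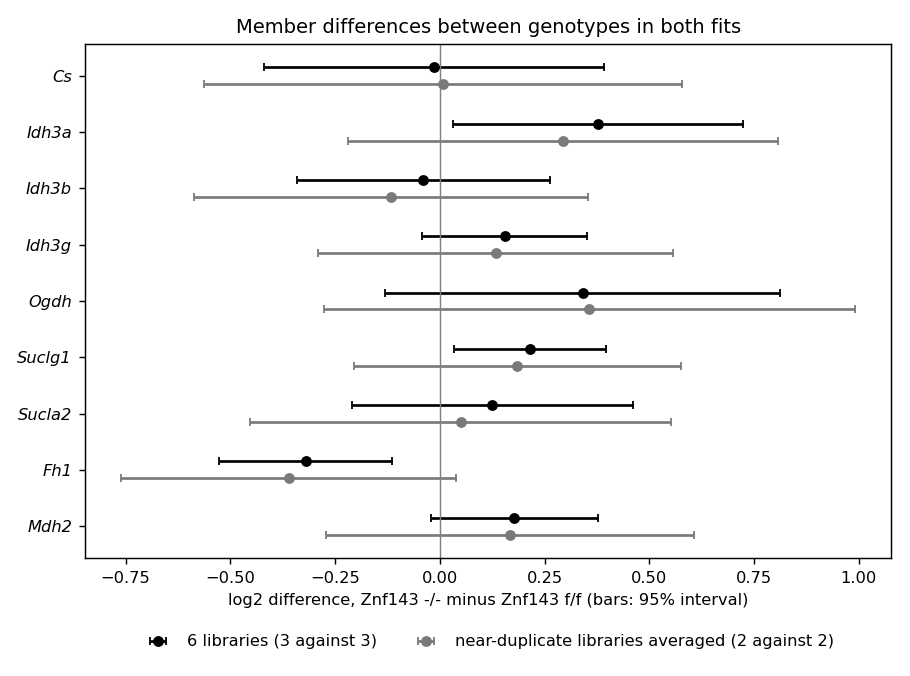
Log2 difference of each member, Znf143 -/- minus Znf143 f/f, with its 95% interval, from the 6 libraries (black) and with the near-duplicate libraries averaged (grey). Black intervals exclude 0 for Idh3a, Suclg1 and Fh1 only, and all 9 grey intervals include 0.

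Library 1 of Znf143 -/- was below libraries 2 and 3 in 8 of the 9 members, the exception being Mdh2, where 45.1% of all genes were. The gap to the mean of that pair was -0.50 log2 for Idh3a, -0.47 for Sucla2 and -0.45 for Ogdh, each larger than the genotype difference of the gene. In Znf143 f/f, library 2 was below both others for Cs and Ogdh, by 0.49 and 0.55 log2 below the mean of the pair, above both for 5 members, and between them for 2. For Cs and Ogdh the spread within Znf143 f/f was thus also larger than the difference between genotypes.

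By mean level in Znf143 f/f the members ranked Mdh2 (167 rescaled FPKM ± 7.68), Idh3g (143 ± 4.54), Suclg1 (57.2 ± 2.64), Idh3b (49.1 ± 1.82), Idh3a (37.4 ± 0.854), Fh1 (37.0 ± 0.883), Cs (28.2 ± 5.18), Sucla2 (27.7 ± 0.750) and Ogdh (22.9 ± 4.76), each as mean ± SD with n = 3. Idh3a and Fh1 overlapped, as did Cs and Sucla2, and the other neighbours in this order did not. The listed length of all 9 genes equals the union of their exonic bases in GENCODE vM21, which is 1.29 times the longest coding transcript for Fh1 and 3.04 times for Suclg1. Divided by that transcript instead, the first 5 ranks and the last were kept and Fh1 moved from rank 6 to rank 8. Fragments per member and library ran from 4061 to 38734, so counting error was small beside the differences between libraries outside the near-duplicate pairs.

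The genes whose profile over the 6 libraries lay closest to the mean profile of the members, by root mean square distance of centred log2 values among 4910 genes with a mean of at least 10 rescaled FPKM, were Actl6a (0.016), Pes1 (0.020), Plrg1 (0.021), Map4k1 (0.021) and Ppm1g (0.021). Their genotype differences were 0.08 to 0.12 and none was called. The choice by profile over the libraries of both genotypes largely sets such values, so they are no separate result. The mean profile itself was -0.03, -0.10 and -0.03 in Znf143 f/f and -0.13, 0.17 and 0.12 in Znf143 -/-, so it was highest in the near-duplicate pair of Znf143 -/- and lowest in library 1 of that genotype. Single members lay farther from that mean, at 0.074 for Sucla2 to 0.222 for Fh1.

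Among 8 other genes of the cycle 0 were called by limma and 1 had an unadjusted p under 0.05, beside 5.99% and 24.2% of all genes tested. The median difference was 0.07, and voom also gave 0 and 1 among these 8 genes. They are Idh2 (the NADP-dependent mitochondrial isocitrate dehydrogenase), Dlst and Dld of the oxoglutarate dehydrogenase complex, Suclg2 (the GTP-forming beta subunit) and Sdha, Sdhb, Sdhc and Sdhd (succinate dehydrogenase). That gene was Suclg2, with means of 20.2 and 27.9 rescaled FPKM (0.45, SE 0.177, unadjusted p = 0.0407, limma adjusted p = 0.185). The 4 subunits of succinate dehydrogenase differed by -0.03 to 0.16. Suclg2 was at 0.40 with the pairs averaged (adjusted p = 0.683). Without Znf143 -/- library 1, Suclg2 and Dld were called, again beside 11.0% of all genes.

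Among 14 genes through which pyruvate enters, covering the carrier, the pyruvate dehydrogenase complex with its kinases and phosphatases, and pyruvate carboxylase, 0 were called by limma or voom and the median difference was 0.10. With an unadjusted p under 0.05 there were 4 in either tool, where 24.2% of all genes passed that level in limma. All 4 of limma were higher: the pyruvate dehydrogenase kinases Pdk1, Pdk3 and Pdk4, which switch the complex off, and Pdhx, which binds its dihydrolipoyl dehydrogenase. The kinase Pdk2 differed by 0.11 (limma adjusted p = 0.701), and both Pdk2 and Pdk1 overlapped between the genotypes. Pdk4 was low, with means of 0.283 and 0.567 rescaled FPKM from 36 to 103 fragments a library, and its genotypes did not overlap (0.81, SE 0.237, limma adjusted p = 0.0982). Pdk3 had means of 55.9 and 76.2 (0.43, SE 0.152, limma adjusted p = 0.152). Pdk4 was at 0.93 and Pdk3 at 0.35 with the pairs averaged (adjusted p = 0.546 and 0.699). Without Znf143 -/- library 1, Pdk1 and Pdk3 were called, in the same fit.

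Of 20 cofactor, anaplerotic and shuttle genes 19 were tested and 2 were called, Mdh1 lower and Me2 higher, where 5.99% of all genes were called. The median difference of the list was 0.15. Mdh1 (chr11:21556787-21572367, minus), the cytosolic malate dehydrogenase of the malate-aspartate shuttle, catalyses the same reaction as Mdh2 outside the mitochondrion. It stood at 159.1, 159.7 and 158 rescaled FPKM in Znf143 f/f and at 70.0, 74.5 and 74.7 in Znf143 -/-. The genotypes were far apart, with the Znf143 -/- mean at 46.0% of the Znf143 f/f mean and a spread within genotypes of 0.792 and 2.69 (SD, n = 3). Mdh1 fell by 1.12 on the log2 scale (SE 0.075, limma adjusted p = 0.00095). The drop was 1.14 with the pairs averaged, where the adjusted p was 0.0811 (unadjusted p = 0.00049), and between -1.14 and -1.01 over the 17 alternatives, of which 16 called it. Between the libraries that stand apart it was -1.19 and between the near-duplicate pairs -1.09. Mdh1 shares 52 exonic bases, 2.03%, with Wdpcp on the opposite strand.

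The ratio of Mdh2 to Mdh1 was 1.02, 1.10 and 1.03 in Znf143 f/f and 2.76, 2.49 and 2.49 in Znf143 -/-. Its size depends on the length that levels are divided by. The listed length is 2.45 times the longest coding transcript for Mdh2 and 1.21 times for Mdh1, and per such transcript the ratio was 2.06 to 2.22 in Znf143 f/f and 5.03 to 5.59 in Znf143 -/-. The genotypes did not overlap. The scales differ by the same factor in every library, so this holds on both by construction. This ratio was chosen after its values were seen and has no test. Other genes of the same shuttle did not pass. Slc25a11, the oxoglutarate carrier, had means of 110.1 and 93.0 rescaled FPKM (-0.24, limma adjusted p = 0.109), and Got1 and Got2, the aspartate aminotransferases, differed by 0.21 and 0.25 (adjusted p = 0.214 and 0.193). These 3 were, after averaging, at -0.25, 0.18 and 0.19 (adjusted p = 0.716 to 0.815). The aspartate-glutamate carriers Slc25a12 and Slc25a13 differed by 0.31 and 0.15 (limma adjusted p = 0.406 and 0.576). After averaging, these carriers were at 0.29 and 0.05 (adjusted p = 0.810 and 0.969).

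Me2, the mitochondrial malic enzyme that turns malate into pyruvate, was at 26.4, 27.3 and 27.5 rescaled FPKM in Znf143 f/f and at 34.8, 39.7 and 41.8 in Znf143 -/-. All Znf143 -/- libraries were higher. Me2 rose by 0.51 on the log2 scale (SE 0.091, limma adjusted p = 0.0272), but only 7 of 17 alternatives kept that call. It was 0.47 with the pairs averaged (adjusted p = 0.426), and it was not called without any one of Znf143 f/f libraries 1 and 3 and Znf143 -/- libraries 2 and 3 (adjusted p = 0.110 to 0.143), nor in the deposited values (adjusted p = 0.0963).

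**Figure D5:**
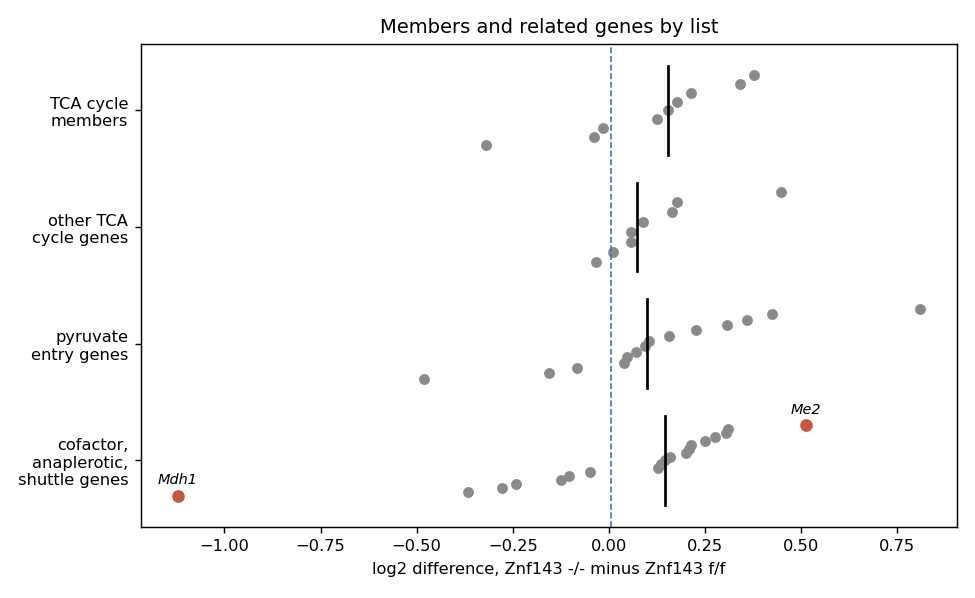
Log2 difference between genotypes for each gene of 4 lists, one point a gene, with red points for genes called at an adjusted p under 0.05, a black bar at each list's median and a dashed line at the median of all genes tested. The 9 members lie between -0.32 and 0.38, and the called genes are Mdh1 at -1.12 and Me2 at 0.51.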

How the data were processed

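RNA of HSLAM cells was made into libraries with SMART-Seq v4 and Nextera XT kits, which do not mark strand. Per the study's methods, the authors used TrimGalore for trimming, STAR for alignment (GRCm38), FeatureCounts for gene counts and DESeq2 for normalisation, and they deposited FPKM per library beside the listed gene length. The table of the authors also holds the mean normalised signal over libraries, a log2 fold change with its error, a Wald score and a p-value per gene from their own comparison. These were not used.

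Whole fragments could be recovered from the deposited FPKM for 99.986% of 138696 values (within 0.05 of a whole number), with 38643255 to 57895793 fragments per library. Each library's FPKM was divided by its median-of-ratios size factor, genes with a mean of at least 0.1 FPKM were kept, and log2(FPKM + 0.1) was fitted with limma 3.58.1 (variance trend, no block, 3 against 3) under R 4.3.3. The data turned out to be FPKM, as the design assumed, and the count-based alternative was voom on the recovered fragments. Ratios were compared by an exact permutation test in scipy 1.17.1. The code was tested on simulated data. Results were recomputed with 16 other settings, and with 2 more that were chosen after the data were seen.

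The members, the lists and the tests were chosen with earlier results of these data known. Named genes were all members, called genes of the related lists, Zfp143 and the 5 genes most alike in profile. A few genes of the related and marker lists are not reported here and were left out of their counts. Genes named beyond these (unadjusted p under 0.05, subunits or kinases of a complex, shuttle genes, markers) were chosen after their values were seen. A legend of the study mentions pairs of littermates, but the labels do not say which libraries form a pair, so the main fit had no block. Deviations of same-numbered libraries from their genotype means correlated at r = -0.17, -0.14 and 0.09. Because each genotype held a near-duplicate pair, these values cannot decide whether the numbers mark pairs. Gene positions are from GENCODE vM21 and promoters from RefSeq, both on GRCm38.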

Additional observations from a re-analysis of the deposited data

How the results depend on the processing

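Of the 17 alternatives, 16 left 0 members called. The exception was the fit without Znf143 -/- library 1, which called 2 members (range over left-out libraries 0 to 2), 2 other cycle genes (0 to 2) and 2 pyruvate entry genes (0 to 2). That fit called 11.0% of all genes, and its Znf143 -/- replicates are the near-duplicate pair. Calls over all genes numbered 1154, and 227 to 2291 with 1 library left out, the lowest without Znf143 -/- library 3 and the highest without Znf143 f/f library 2. They were 44 with the near-duplicates averaged and 191 with the replicate number as a block, where no member was called. The block with deposited values gave 864 calls. With the FPKM as deposited the median of all genes moved to 0.11, and 63.5% of calls were higher, against 50.1% after rescaling. The members' median was then 0.27, with or without the block.

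Cofactor, anaplerotic and shuttle genes called numbered 1 with deposited values, own fragment totals, no variance trend or the replicate block (rescaled or deposited), 0 with near-duplicates averaged, and 1 to 3 with a library left out. Cs was 0.10 with deposited values (also with the block), 0.015 with own totals, 0.0072 with near-duplicates averaged, and -0.17 to 0.11 with a library left out (0.071 without Znf143 f/f 1, 0.051 without Znf143 f/f 3, 0.11 without Znf143 -/- 1). Idh3b was 0.075 with deposited values (also with the block) and 0.093 without Znf143 -/- 1, in a range of -0.13 to 0.093. Sucla2 to Suclg1 ranged from -0.16 to 0.046, the latter without Znf143 -/- 1. The cause was not tested in any of these. The block changed no call among the named genes but that of Me2 (adjusted p = 0.116). Voom called 1401 genes and 0 members. Intervals cover the spread between libraries, and depth limited none of the members.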
